A study of Homo sapiens with 6 samples.

Results

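Messenger RNA of the epidermal growth factor (EGF) family was followed through 10 genes: the ligands HBEGF, AREG, EREG, TGFA and BTC, the receptors EGFR, ERBB2, ERBB3 and ERBB4, and the protease ADAM17. They were taken by symbol from the 23686 genes in the count files, and all 10 were found. The libraries came from HEK293, an established human embryonic kidney line, carrying green fluorescent protein (GFP). The ROS co-culture group (n = 3) shared its culture with HEK293 cells carrying DAAO. This abbreviation commonly stands for D-amino acid oxidase, which releases hydrogen peroxide, a reactive oxygen species (ROS), while it oxidises D-amino acids. The control group (n = 3) carried GFP as well, and in both groups the GFP-positive cells had been isolated by cell sorting. The sample titles call the controls "Wt", commonly short for wild type, and do not say in what respect. The labels give D-alanine at 25 µM and a time of 10 h in 1 treatment text that all 6 samples share. Whether the controls received D-alanine, had the same time or had partner cells therefore cannot be told from the labels. The promoters that drive GFP and DAAO, and whether the lines are single clones, are not given in the sources used here. Nothing in the labels says that the 3 libraries of a group came from separate cultures, so p-values measure the spread between these libraries, which may be technical.

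EGF family ligands are made as membrane-anchored precursors. Proteases of the ADAM family, ADAM17 foremost, cut them at the cell surface, and the released ligand binds receptors of the ERBB family on the same or a neighbouring cell. Bound receptors pair and switch on their tyrosine kinases, which feed the RAS-ERK and PI3K-AKT cascades; oxidants are known to stimulate both ligand shedding and receptor phosphorylation, steps that RNA counts do not see. ERBB2 has no known ligand of its own and ERBB3 has a weak kinase, so each works mainly as a partner in a pair.

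The libraries held 19091085 to 36250314 gene-assigned reads, and 1 read was worth 0.0279 to 0.0522 CPM (read counts scaled to a common library total). Control 1 was the highest control for 7 of the 8 tested members and the lowest for BTC; over all tested genes it was the highest for 39.5% and the lowest for 42.9%. Co-culture 2 and 3 had a median of 0.124% and 0.211% of reads on the unexpected strand, against 1.57% to 1.75% in the other 4 libraries, so a class of few such reads held co-culture libraries only. All 9 genes chosen as HEK293 markers were present at 1 CPM or more in every library. Their summed level was 2047 to 2145 CPM in the controls and 2404 to 2623 CPM in co-culture. VIM carried most of that difference, at 925 to 998 against 1257 to 1318 CPM. NEFL (132 to 177 against 186 to 190 CPM) and INA (27.85 to 28.5 against 35.8 to 37.3 CPM) were also higher without overlap. So was KRT18 (169 to 182 against 184 to 233 CPM). SOX11 was lower in co-culture without overlap (139 to 159 against 126 to 130 CPM). Of all tested genes 14.3% were higher and 15% lower without overlap. The part of the marker differences in the results was not tested. The partner cells were HEK293 as well, so these markers cannot show whether any were carried through sorting. Of 4 blood markers CD3E had 0 reads and CD14 stood at 1.15 to 1.76 CPM. The 4 together summed to 1.57 to 1.96 CPM in the controls and 1.15 to 1.71 CPM in co-culture. The 3 endothelial markers summed to at most 0.615 CPM. The 4 fibroblast markers, led by COL1A1, summed to 44.5 to 59.3 CPM in the controls and 49.1 to 53.5 CPM in co-culture. Within that sum LUM (9.35 to 11.6 against 5.90 to 7.65 CPM) and COL3A1 (3.45 to 9.30 against 2.23 to 3.30 CPM) were lower in co-culture without overlap.

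Of the 10 genes, 8 had enough reads to be tested and 0 passed an adjusted p of 0.05 in edgeR's quasi-likelihood test, where 4.83% of all 14582 tested genes passed. At an unadjusted p under 0.05 there were 2 of the 8, EGFR and HBEGF, both higher in co-culture, against 23.2% of all tested genes. The log2 fold changes of the 8 ran from -0.45 to 0.38 with a median of 0.08, and 6 of them were above 0; the median over all tested genes was -0.00. The remaining pair, AREG and EREG, had too few reads for the test, and every co-culture library exceeded every control in CPM for both, as was so for 14.3% of the tested genes. In bulk RNA, fewer cells that express a gene and less RNA per cell cannot be told apart. With the class of few unexpected-strand reads entered as a batch, the group effect rests on co-culture 1 against the controls. The log2 fold changes were then 0.43 for HBEGF, 0.25 for EGFR and 0.25 for ERBB3 (edgeR adjusted p 0.356, 0.583 and 0.655), and 0.199% of genes passed.

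Sequence just upstream of the start of transcription is shown for 4 of the genes. These are AREG and EREG, the 2 with the fewest reads, and the tested ligand and receptor with the smallest unadjusted p-values, HBEGF and EGFR. A window was at hand for 9 of the 10 genes in RefSeq's table for GRCh38.p14. Each run below covers the 250 bases before the gene's outermost start in RefSeq, 5′ to 3′ on the gene's own strand. Capitals mark TATAAA (the TATA box), TGACGTCA (the cyclic AMP response element), TGANTCA (the AP-1 site) and GGGCGG (the GC box), searched on both strands; the CArG box bound by serum response factor was searched too. The AREG window is chr4:74444886-74445135 on the plus strand, the EREG window chr4:74364895-74365144 on the plus strand, the HBEGF window chr5:140346604-140346853 on the minus strand and the EGFR window chr7:55018767-55019016 on the plus strand.
AREG: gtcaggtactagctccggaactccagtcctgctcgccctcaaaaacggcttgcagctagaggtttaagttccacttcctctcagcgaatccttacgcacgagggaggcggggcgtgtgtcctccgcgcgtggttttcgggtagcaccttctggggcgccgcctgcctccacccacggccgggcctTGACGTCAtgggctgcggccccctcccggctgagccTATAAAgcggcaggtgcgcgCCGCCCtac
EREG: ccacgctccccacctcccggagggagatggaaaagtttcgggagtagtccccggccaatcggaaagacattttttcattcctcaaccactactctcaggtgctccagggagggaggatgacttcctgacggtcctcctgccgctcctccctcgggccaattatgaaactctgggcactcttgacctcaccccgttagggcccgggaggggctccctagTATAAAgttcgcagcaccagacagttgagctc
HBEGF: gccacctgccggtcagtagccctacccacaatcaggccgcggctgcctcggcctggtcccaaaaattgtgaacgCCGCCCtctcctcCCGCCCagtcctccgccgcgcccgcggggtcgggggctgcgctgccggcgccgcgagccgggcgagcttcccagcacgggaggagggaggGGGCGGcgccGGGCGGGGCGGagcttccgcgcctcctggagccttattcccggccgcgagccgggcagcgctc
EGFR: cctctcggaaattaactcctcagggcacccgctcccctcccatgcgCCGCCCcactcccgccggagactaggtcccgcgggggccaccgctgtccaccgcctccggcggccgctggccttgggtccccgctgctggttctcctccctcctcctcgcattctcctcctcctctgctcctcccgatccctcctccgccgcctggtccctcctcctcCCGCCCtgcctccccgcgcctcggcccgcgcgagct

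AREG and EREG each had 1 TATAAA, which 10.7% of all 35116 such windows hold, and none of the other 7 windows had it. AREG also had 1 TGACGTCA, present in 1.65% of windows. HBEGF and EGFR held 5 and 2 copies of GGGCGG, AREG 1 and EREG 0, where 42.6% of windows have it; 2 of the 5 copies in HBEGF overlap by 1 base. The GC content was 65.2% for AREG and 58.0% for EREG, against 76.4% for HBEGF and 73.6% for EGFR. The window of ERBB2 had 0 GGGCGG and 65.6% GC, and that of ERBB4 had 57.2% GC. Each window precedes the gene's outermost start in RefSeq. Whether the mRNA counted here began at that start was not tested, for ERBB2 as for the others. TGANTCA (6.57% of windows) and the CArG box (1.16%) were in none of the 4. These matches describe the letters of the reference and not binding in these cells. AREG, EREG and BTC are also neighbours on chromosome 4, where EPGN, EREG, AREG and BTC follow each other with no other protein-coding gene between them in RefSeq.

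Because long transcripts yield more reads, levels were compared between genes as CPM divided by the length in kilobases of the gene's longest principal transcript in GENCODE release 29. ERBB2 was the highest, at a mean of 25.2 CPM per kb over the 6 libraries (range 23.3 to 27.4), and ADAM17 followed at 15.3 (14.7 to 15.8). ERBB3 at 6.11 (4.48 to 7.00) and HBEGF at 6.10 (4.97 to 7.30) could not be separated. EGFR stood at 3.26 (2.42 to 3.87), and its range overlapped those of ERBB4 at 2.46 (2.27 to 2.60) and TGFA at 2.35 (2.07 to 2.50). BTC reached 0.427 CPM per kb (0.308 to 0.667), while AREG at 0.0599 (0 to 0.192) and EREG at 0.0395 (0.0109 to 0.0823) were near the limit of detection. With the merged length of all exons in place of the principal transcript, chosen after the data were seen, the levels of ERBB3, EGFR, ERBB4 and TGFA were 4.87, 2.82, 2.45 and 2.11 CPM per kb and HBEGF stood above ERBB3.

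**Figure D1:**
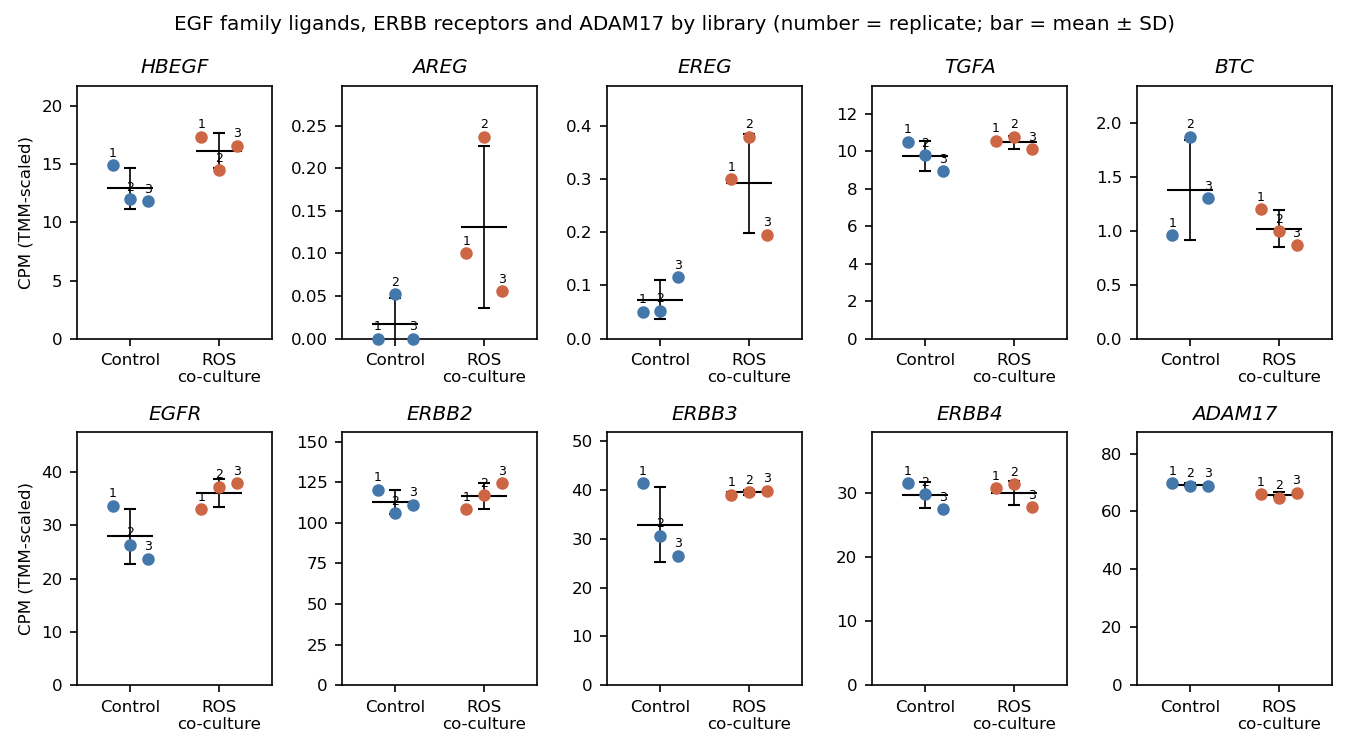
CPM of the 10 genes (vertical axes, each from 0) in the 3 control and 3 ROS co-culture libraries; points are libraries labelled by replicate, horizontal bars are means and whiskers are SDs. Control 1 sits above the other 2 controls for HBEGF, EGFR and ERBB3, and all 3 co-culture points lie above the controls for AREG and EREG.

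HBEGF (heparin-binding EGF, which binds EGFR and ERBB4) had the highest mean level per length of the 5 ligands among the 10 genes. Its level was 15.0, 12.0 and 11.9 CPM in controls 1, 2 and 3 and 17.4, 14.5 and 16.6 CPM in co-culture 1, 2 and 3. The groups overlapped through 1 pair, since control 1 exceeded co-culture 2. The means were 12.9 ± 1.75 and 16.2 ± 1.51 CPM (SD, n = 3 each), and the log2 fold change was 0.33 (95% interval 0.07 to 0.59, SE 0.12) with an edgeR adjusted p of 0.131. Without control 1 the fold change was 0.44 and the edgeR adjusted p 0.00539, in a fit where 20.8% of all genes passed; without any other library it lay between 0.26 and 0.40 and did not pass.

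TGFA (transforming growth factor alpha, an EGFR ligand) stayed near 10 CPM in every library. It stood at 10.5, 9.81 and 8.94 CPM in the controls and at 10.6, 10.8 and 10.1 CPM in co-culture. The groups overlapped, and the log2 fold change was 0.11 with a 95% interval of -0.14 to 0.35 (edgeR adjusted p 0.609). An increase of up to 1.28-fold is therefore within the interval.

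BTC (betacellulin, a ligand of EGFR and ERBB4) rested on 19 to 36 reads per library. Its level was 0.960, 1.88 and 1.30 CPM in the controls and 1.20, 0.998 and 0.866 CPM in co-culture. Control 1 was lowest among the controls, the reverse of its place for HBEGF. The log2 fold change was -0.45 with a 95% interval of -1.11 to 0.21 (edgeR adjusted p 0.399), so between a 0.463-fold and a 1.16-fold level is covered. Depth limits this gene most of the 8.

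EREG (epiregulin, a ligand of EGFR and ERBB4) had 1, 1 and 3 reads in controls 1, 2 and 3 and 6, 8 and 7 reads in co-culture 1, 2 and 3. All co-culture libraries were above all controls in CPM, at 0.196 to 0.380 against 0.0505 to 0.115. The pooled ratio was 3.55, with a 95% interval of 1.30 to 12.1 that covers counting error only. AREG (amphiregulin, an EGFR ligand) had 0, 1 and 0 reads in the controls and 2, 5 and 2 in co-culture. Its pooled ratio was 7.62 with a counting interval of 1.06 to 334, since the controls held 1 read in all. An exact permutation test over the libraries gave a two-sided p of 0.1 for each, the smallest that 3 against 3 can give. Groups of 3 that do not overlap fix this value, so it adds nothing to the lack of overlap. In edgeR without a low-count filter, EREG had a log2 fold change of 1.80 (SE 0.71) and an adjusted p of 0.165, and AREG one of 2.59 (SE 1.26) and an adjusted p of 0.277. As background, older builds of the human genome carry the AREG locus in duplicate, and reads that fit more than 1 place are not counted; the share of AREG reads lost in this way was not tested. Where a library held 0 reads, up to 3 reads, or 0.115 to 0.152 CPM in those 2 controls, are allowed by counting error, which spans the AREG level of 2 of the 3 co-culture libraries.

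The other ligands of the family showed no called change: 5 of 6 could be tested and 0 passed, with a median log2 fold change of -0.06. NRG3 (0.14) was above 0, while EGF (-0.02), NRG1 (-0.06), NRG2 (-0.21) and NRG4 (-0.23) were below. The neuregulins bind ERBB4, and only some of them also bind ERBB3. EPGN, next to EREG on the chromosome, averaged 0.0470 CPM in the controls and 0.0531 CPM in co-culture. Within the summed level per length of all 11 ligands, HBEGF made up 23.6% to 26.4% in the controls and 25.6% to 30.9% in co-culture. NRG3 held a like share, at 22.6% to 26.5% and 24.5% to 25.8%, and its level per length of 4.73 to 6.30 CPM per kb overlapped that of HBEGF. TGFA made up 9.91% to 10.7% of the ligand sum in all 6 libraries. EGF (9.93% to 10.3% against 9.10% to 9.64%) and NRG4 (11.2% to 13.3% against 9.08% to 10.9%) had lower shares in co-culture without overlap. Those of AREG and EREG were higher without overlap. In CPM, EGF and NRG4 overlapped between the groups, and all shares depend on 1 sum. No overlap in CPM was seen for 29.3% of all tested genes. With merged exon lengths NRG3 averaged 2.69 CPM per kb, the AREG shares overlapped and the NRG2 shares were lower without overlap.

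Of the receptors, EGFR, which binds HBEGF, TGFA, AREG, EREG and BTC, differed most. Its level was 33.7, 26.3 and 23.7 CPM in controls 1, 2 and 3 and 33.1, 37.3 and 38.0 CPM in co-culture 1, 2 and 3. Controls 2 and 3 were below every co-culture library, and control 1 was just above co-culture 1. The means of 27.9 ± 5.17 and 36.1 ± 2.64 CPM (SD, n = 3 each) differed by 0.38 on the log2 scale (95% interval 0.11 to 0.64, SE 0.12), with an edgeR adjusted p of 0.0957. DESeq2 placed the same change at 0.37 with an adjusted p of 0.0499, in a fit where 1032 of 14582 genes passed. Without control 1 the log2 fold change was 0.53 (edgeR adjusted p 0.000231), and without each other library it ran from 0.27 to 0.44 and did not pass.

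ERBB3 followed the pattern of EGFR. It stood at 41.4, 30.6 and 26.5 CPM in the controls and at 39.0, 39.6 and 39.9 CPM in co-culture. The co-culture libraries lay within 1 CPM of each other, while the controls spread widely, with control 1 the highest of all 6. The log2 fold change was 0.27 (95% interval -0.04 to 0.58, SE 0.14, edgeR adjusted p 0.273); without control 1 it was 0.47 (edgeR adjusted p 0.000330), and without control 3 it was 0.13. Over the 6 libraries the log2 CPM of EGFR and ERBB3 had a Pearson r of 0.947 and a Spearman rho of 0.829, a description of points that share their libraries.

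ERBB2, the partner receptor without a ligand, stood at 121, 106 and 111 CPM in the controls and at 109, 117 and 125 CPM in co-culture. The groups overlapped, with a log2 fold change of 0.05 and a 95% interval of -0.10 to 0.21 (edgeR adjusted p 0.692). ERBB4, a receptor for neuregulins, HBEGF, BTC and EREG, stood at 31.5, 29.8 and 27.5 CPM in the controls and at 30.7, 31.4 and 27.8 CPM in co-culture. Its log2 fold change was 0.02 with a 95% interval of -0.17 to 0.20 (edgeR adjusted p 0.934). With all 6 libraries the upper ends of the intervals were 1.16-fold for ERBB2 and 1.15-fold for ERBB4, given the spread between these libraries. The log2 fold change of ERBB2 was 0.11 without co-culture 1, and that of ERBB4 was 0.07 without co-culture 3.

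**Figure D2:**
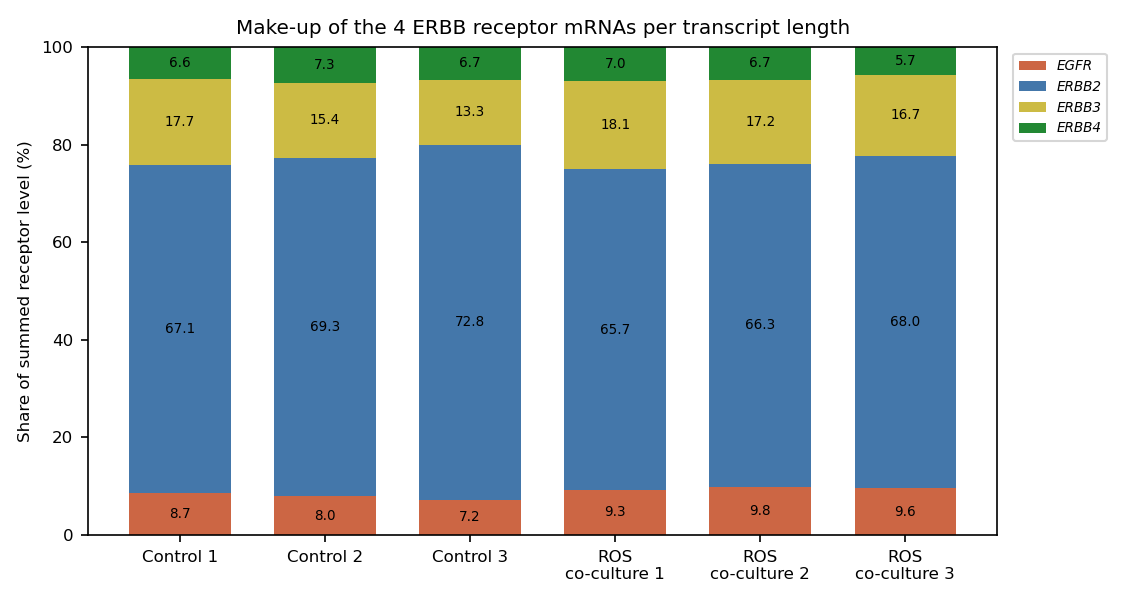
Share of each ERBB receptor (vertical axis, percent, from 0 to 100) in the summed CPM per kilobase of EGFR, ERBB2, ERBB3 and ERBB4, 1 bar per library. ERBB2 holds 65.7% to 72.8% in every bar, and EGFR holds 9.26% to 9.76% in the co-culture bars against 7.18% to 8.67% in the controls.

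As a share of the 4 receptor mRNAs per length, ERBB2 made up 69.7 ± 2.87% in the controls and 66.7 ± 1.22% in co-culture (SD, n = 3 each). EGFR made up 8.67%, 7.97% and 7.18% in controls 1, 2 and 3 and 9.26%, 9.76% and 9.59% in co-culture, so its share did not overlap between the groups although its CPM did; this was 1 of 4 receptor shares, and 29.3% of all tested genes showed no overlap in CPM. With merged exon lengths the EGFR share was 7.59% to 9.17% against 9.77% to 10.3%. ERBB3 held 13.3% to 17.7% in the controls and 16.7% to 18.1% in co-culture, and ERBB4 held 5.67% to 7.31% over all libraries. The shares overlapped between the groups for ERBB2, ERBB3 and ERBB4.

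ADAM17 is the main sheddase of HBEGF, TGFA, AREG and EREG. It stood at 69.8, 68.9 and 68.9 CPM in the controls and at 65.9, 64.8 and 66.5 CPM in co-culture. Every co-culture library was below every control, which was so for 15% of all tested genes; ADAM17 was the 1 of the 8 tested members without overlap, where 29.3% of all tested genes showed none in either direction. The difference was small, at -0.07 on the log2 scale (95% interval -0.20 to 0.05, SE 0.06) and an edgeR adjusted p of 0.469. Forward-strand reads came to 4.72% of those over ADAM17, more than over the other 9 genes.

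**Figure D3:**
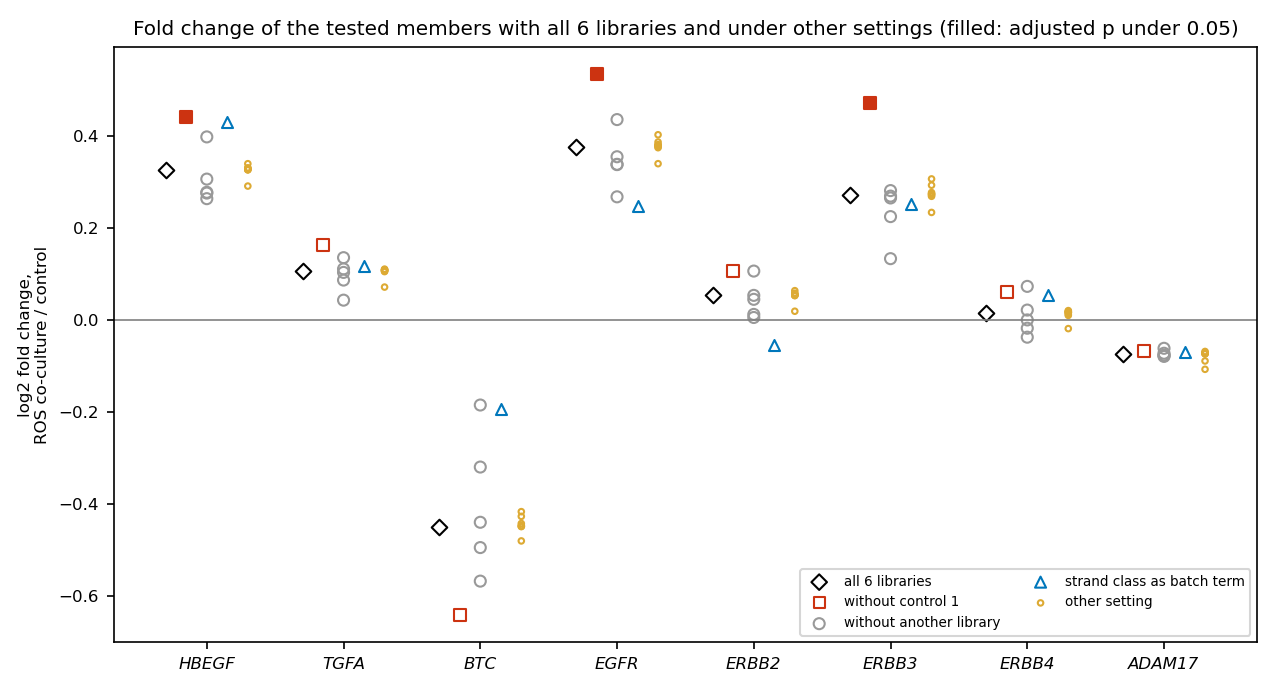
Log2 fold change (vertical axis) of the 8 tested genes with all 6 libraries and under up to 15 other settings, each setting a point whose shape gives its kind; filled points have an adjusted p under 0.05. Leaving out control 1 moved HBEGF, EGFR and ERBB3 to 0.44, 0.53 and 0.47, and the fit with a batch term put ERBB2 at -0.05.

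**Figure D4:**
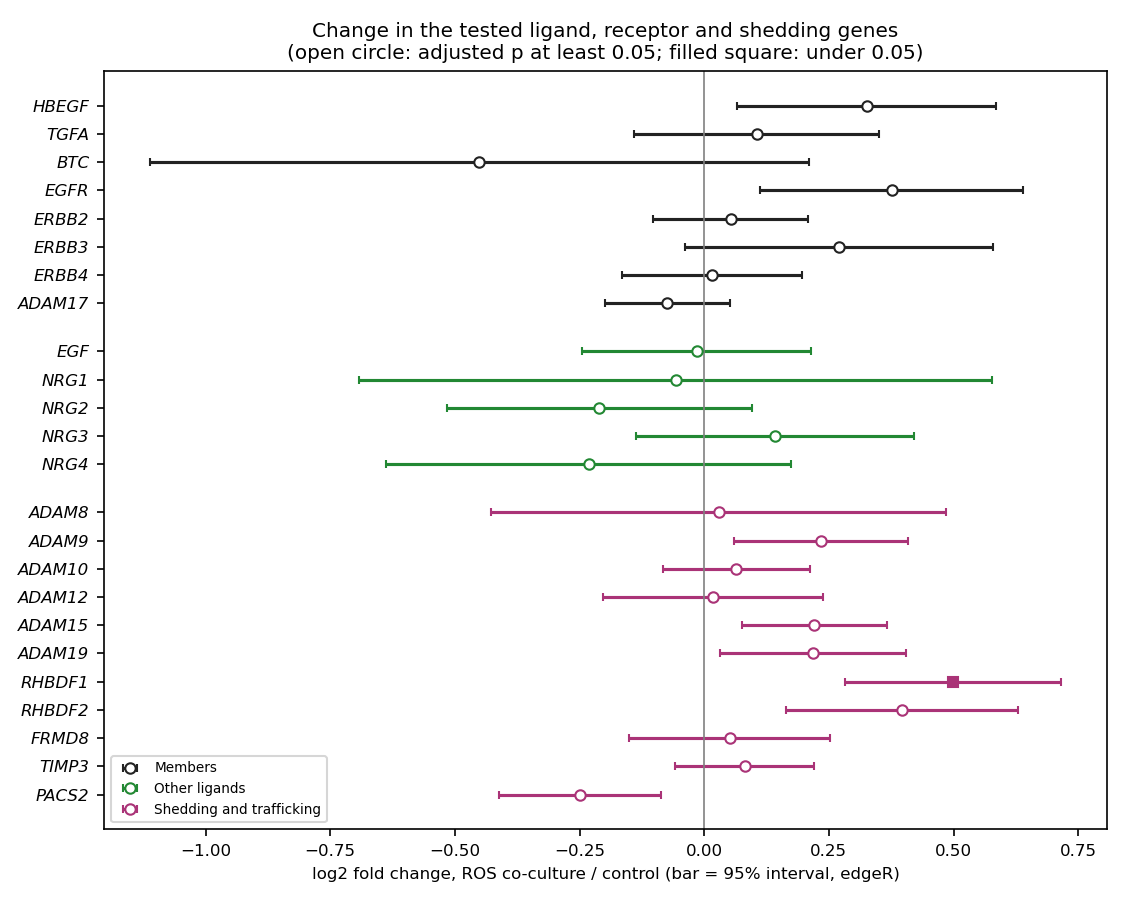
Log2 fold change of co-culture over control (horizontal axis) for the tested ligands, receptors and shedding genes; bars are 95% intervals from edgeR and filled squares mark an adjusted p under 0.05. RHBDF1 at 0.50 is the 1 filled square; EGFR at 0.38 and HBEGF at 0.33 have intervals above 0 and did not pass after adjustment.

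The shedding machinery around ADAM17 held 1 called gene. Of 12 genes for sheddases and their partners, 11 were tested, 10 had a log2 fold change above 0 (7229 of the 14582 tested genes did), and RHBDF1 rose; the median was 0.08. The 1 call is 9.09% of the 11, where 4.83% of all tested genes were called in either direction and 2.66% were called higher. A single call says little about the list, which was chosen with earlier results of these data known. RHBDF1 encodes iRhom1, a catalytically dead rhomboid protein that carries ADAM17 to the cell surface. It stood at 13.1, 14.5 and 11.9 CPM in the controls and at 18.7, 19.4 and 17.8 CPM in co-culture. The groups were apart, by 0.50 on the log2 scale (SE 0.10), and the edgeR adjusted p was 0.0212. The size held in the other 15 settings, at 0.43 to 0.57, but the call was lost in 6 of them: with the replicate number as a block (0.50, edgeR adjusted p 0.0593), in the fit with the batch term (0.51, edgeR adjusted p 0.249), and without co-culture 1, 2 or 3 or control 2 (0.50, 0.47, 0.54 and 0.57, edgeR adjusted p from 0.0533 to 0.141).

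RHBDF2, which encodes the related iRhom2 and is named here after its values were seen, stood at 14.3, 14.1 and 12.1 CPM in the controls and at 16.0, 19.2 and 17.8 CPM in co-culture. It missed the threshold at 0.40 on the log2 scale (SE 0.11), with an edgeR adjusted p of 0.0557. The proteases ADAM9 and ADAM15, likewise named after their values were seen, differed by 0.23 and 0.22 on the log2 scale (edgeR adjusted p 0.109 and 0.0791). ADAM10, the main sheddase of EGF and BTC, had one of 0.06 (edgeR adjusted p 0.601). PACS2, a sorting protein that recycles ADAM17, was the 1 gene below 0, at -0.25 (edgeR adjusted p 0.0782), and is also named after its value was seen.

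**Figure D5:**
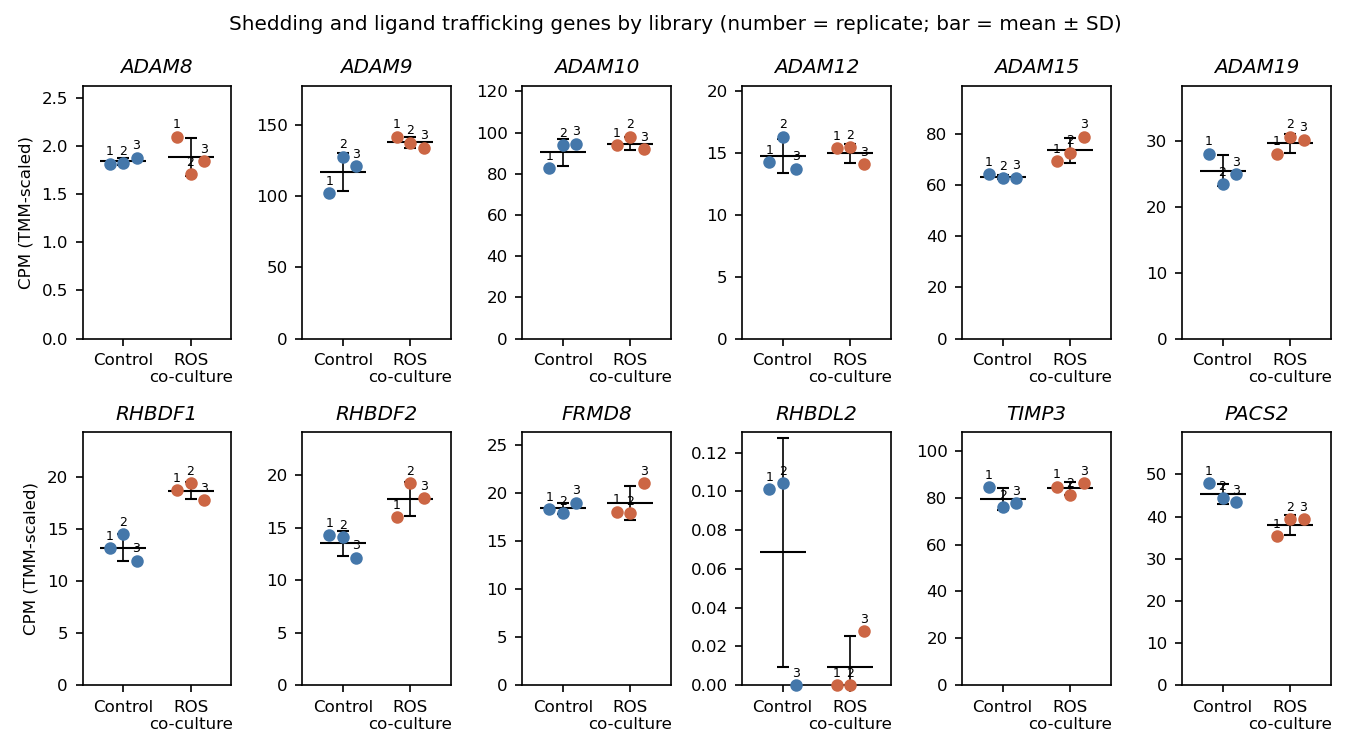
CPM of the 12 shedding and trafficking genes (vertical axes, each from 0) in the control and ROS co-culture libraries; points are libraries labelled by replicate, horizontal bars are means and whiskers are SDs. The co-culture points of RHBDF1 and RHBDF2 all lie above their controls, while ADAM10 and TIMP3 overlap.

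Genes that restrain the receptors gave 1 call of 15 tested. PTPN1, a tyrosine phosphatase that dephosphorylates EGFR and whose active cysteine is sensitive to peroxide, stood at 80.9, 86.1 and 88.4 CPM in the controls and at 72.6, 68.8 and 73.6 CPM in co-culture. All co-culture libraries were lower, at -0.25 on the log2 scale (SE 0.06), with an edgeR adjusted p of 0.0465, where 2.17% of all tested genes were called lower. The call was lost in 7 of 15 other settings, at -0.27 to -0.22 and edgeR adjusted p-values from 0.0854 to 0.384: with the replicate block, with the batch term, and without any 1 library except control 1. The feedback inhibitor ERRFI1 (0.14), the inhibitor LRIG1 (-0.06) and the ubiquitin ligase CBL (-0.02) did not pass. Of 24 adaptors and kinases downstream, among them the adaptor GRB2 and the exchange factor SOS1, 0 passed edgeR's adjusted threshold; before adjustment the p of 6 of the 24 was under 0.05, as it was for 23.2% of all tested genes.

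Among the 18 tested genes known to be switched on by ERK signalling, 5 were called and all 5 rose. That is a share of 27.8%, where 4.83% of all tested genes were called in either direction and 2.66% were called higher. The log2 fold change was above 0 for 12 of the 18 and below 0 for 6, with a median of 0.14. The 4 with the largest changes were EGR3 (1.45), ETV4 (1.45), FOSL1 (1.26) and IER3 (0.88), and the fifth was SPRY4 (0.68), with edgeR adjusted p-values of 0.0155, 0.000581, 0.00591, 0.00210 and 0.00470. The 6 below 0, named after their values were seen, were MYC (-0.33), PHLDA1 (-0.28), FOS (-0.23), SPRY2 (-0.19), DUSP5 (-0.13) and DUSP6 (-0.02); none passed, and for MYC every co-culture library was below every control (edgeR adjusted p 0.0939). IER3, an early response gene, stood at 37.4, 30.1 and 27.4 CPM in the controls and at 62.0, 57.2 and 55.6 CPM in co-culture. ETV4 and IER3 passed in all 15 other settings, and SPRY4 in all but the fit with a batch term (0.73, edgeR adjusted p 0.110). FOSL1 lost its call there (1.16, 0.175) and without co-culture 2 or control 2 (1.22 and 1.24, edgeR adjusted p 0.0597 and 0.0590). EGR3 lost it with the replicate block (1.47, 0.0522), with the batch term (1.33, 0.241), without any co-culture library and without control 2 (1.40 to 1.55, edgeR adjusted p from 0.0582 to 0.108). Among the 5 called genes control 1 was the control nearest to co-culture for EGR3, FOSL1 and IER3 and the farthest for ETV4 and SPRY4. The list had already been known to change in these libraries, so neither its called share nor its direction is independent evidence.

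Since 0 members passed, the gene patterns most like a member were sought for EGFR, the tested member with the smallest p. Among 11646 other genes with a mean of at least 5 CPM, SULF2 (Pearson r 0.996, Spearman rho 1), CBX7 (0.993 and 0.943) and FGFRL1 (0.992 and 1) were closest in log2 CPM over the 6 libraries, and 412 genes had an r of at least 0.9. SULF2, a sulfatase that trims heparan sulfate, stood at 76.5, 59.5 and 55.2 CPM in the controls and at 75.2, 81.1 and 82.2 CPM in co-culture. With 6 libraries and so many genes, such values describe likeness only.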

How the data were processed

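The deposited values are raw counts of reads per gene, 1 file per library, in the layout of STAR's gene counting; STAR 2.53a, FastQC and genome build hg18 are named in the submitters' processing notes, and the gene annotation and read trimming are not given in the sources used here. The kit was stranded, per the labels' protocols, and the authors' reverse-strand counts were used. Summary lines for unmapped, multimapping, no-gene and ambiguous reads (1.22% to 1.67%, 6.48% to 8.42%, 14.8% to 17.7% and 0.835% to 1.01% of reads) were left out. STAR does not count multimapping reads, so near-identical copies are undercounted.

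Group was the only term of a fit over all genes in edgeR 4.0.16 under R 4.3.3: filterByExpr at a minimum count of 10 (14582 of 23686 genes), TMM scaling, robust quasi-likelihood F tests and Benjamini-Hochberg adjustment over all tested genes at 0.05. CPM values are TMM-scaled. Standard errors are the absolute log2 fold change over the square root of F. Intervals and limits from low read counts cover counting error only, and reads carried no recorded molecular identifiers. DESeq2 1.42.0 and limma 3.58.1 (voom) served as alternatives, beside other scalings, filters, strand columns, a replicate block, a batch term and leaving out each library. Libraries of a group differed by a chi-square per degree of freedom of 4.73 to 18.5, so each counted as 1 sample. Named were all members, called genes of the pathway lists (the 4 largest where more than 4), and the 3 genes most like the leading member. Members and lists were chosen with earlier results of these data known. The scripts were tested on simulated data. Transcript lengths came from GENCODE release 29 and promoters from RefSeq, both on GRCh38, a later build than hg18; no coordinate of one was used with the other.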

Additional observations from a re-analysis of the deposited data

How the results depend on the processing

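Of the 8 tested members, HBEGF, TGFA, BTC, EGFR, ERBB3 and ADAM17 kept their direction in every other setting run (15 each, 14 for BTC, which a minimum count of 50 removed). With all 6 libraries the number called was 0 in every setting but DESeq2. There it was 1 (EGFR, DESeq2 adjusted p 0.0499), in a fit where 1032 of 14582 genes passed. The number ranged from 0 to 3 when 1 library was left out. The 3 were EGFR, ERBB3 and HBEGF without control 1. ERBB2 turned to -0.054 once the strand class was a batch term. ERBB4 turned to -0.0193 with total counts, to -0.000376 without co-culture 1, to -0.0184 without co-culture 2 and to -0.0379 without control 3, in a range of -0.0379 to 0.0726 over the fits without 1 library. The pathway lists had 7 called genes, 4 with the replicate block, 2 with the batch term and from 3 to 25 when 1 library was left out, the 25 without control 1. Over all genes 704 passed (388 higher, 316 lower), 164 with the replicate block, 29 with the batch term and from 65 (without control 2) to 3069 (without control 1) when 1 library was left out. Total counts gave 310 higher and 572 lower. The causes were not tested. Same-numbered libraries had deviations correlated at -0.042, -0.085 and -0.0915, so no positive likeness between them was seen. Whether the replicate numbers pair the samples cannot be told from this, since samples handled together need not deviate alike. The block changed no member's call. Depth limits AREG, EREG and BTC.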
